A study of Caenorhabditis elegans with 2 samples.

Results

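The proteasome subunit genes of Caenorhabditis elegans were examined for LIN-13 peaks in whole L4 larvae. They were picked out by gene name, as the 33 protein-coding genes whose names start with pas-, pbs-, rpn- or rpt- and a number, out of 19973 nuclear protein-coding genes. Of these, 14 encode the core particle (pas- and pbs- genes) and 19 the regulatory particle (rpn- and rpt- genes). The data came from chromatin immunoprecipitation sequencing of LIN-13, a zinc-finger protein encoded by one of the synMuv B genes, which are known to repress vulval fates and germline genes in somatic cells. The larvae were mixed-sex animals of strain OP49, which has the ed3 allele of unc119 and an integrated transgene, wgIs49, that holds both an unc119 copy and lin-13 with TY1, EGFP and FLAG tags. LIN-13 was thus followed through a tagged transgene, and all tissues were pooled. Both biological replicates (n = 2) belong to the same group, and no other condition was assayed. Comparisons were therefore between genes and between replicates, and none of them measures a change in binding or in expression.

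The 26S proteasome degrades proteins that carry ubiquitin chains. Its core particle is a barrel of alpha and beta rings, with the proteolytic sites on the inner face of the beta rings. The regulatory particle caps the barrel: its base holds a ring of AAA ATPases that unfold substrates, and its lid removes ubiquitin. In worms the transcription factor SKN-1A, a relative of Nrf1, is known to raise the expression of proteasome subunit genes when proteasome function falls.

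LIN-13 summits lay at about as large a share of core as of regulatory particle genes in the main list of peaks. In the list that passed the authors' irreproducible discovery rate (IDR) step, 17 of the 33 genes had a summit within 500 bp of an annotated 5' end (51.5%, exact 95% interval 33.5 to 69.2%), against 6.99% of all protein-coding genes. A gene with such a summit is called bound here. The 7 bound core genes were pas-4, pas-5, pbs-1, pbs-2, pbs-3, pbs-5 and pbs-7 (7 of 14, 50%, exact 95% interval 23 to 77%). The 10 bound regulatory genes were rpt-1, rpt-2, rpt-4, rpn-3, rpn-5, rpn-6.1, rpn-9, rpn-10, rpn-11 and rpn-12 (10 of 19, 52.6%, exact 95% interval 28.9 to 75.6%). The intervals cover counting error only, treat genes as independent, and overlap over most of their length. With some other settings the core share was the lower, as given below. No test was made of the list, since it was chosen with earlier results of these data known.

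**Figure D1:**
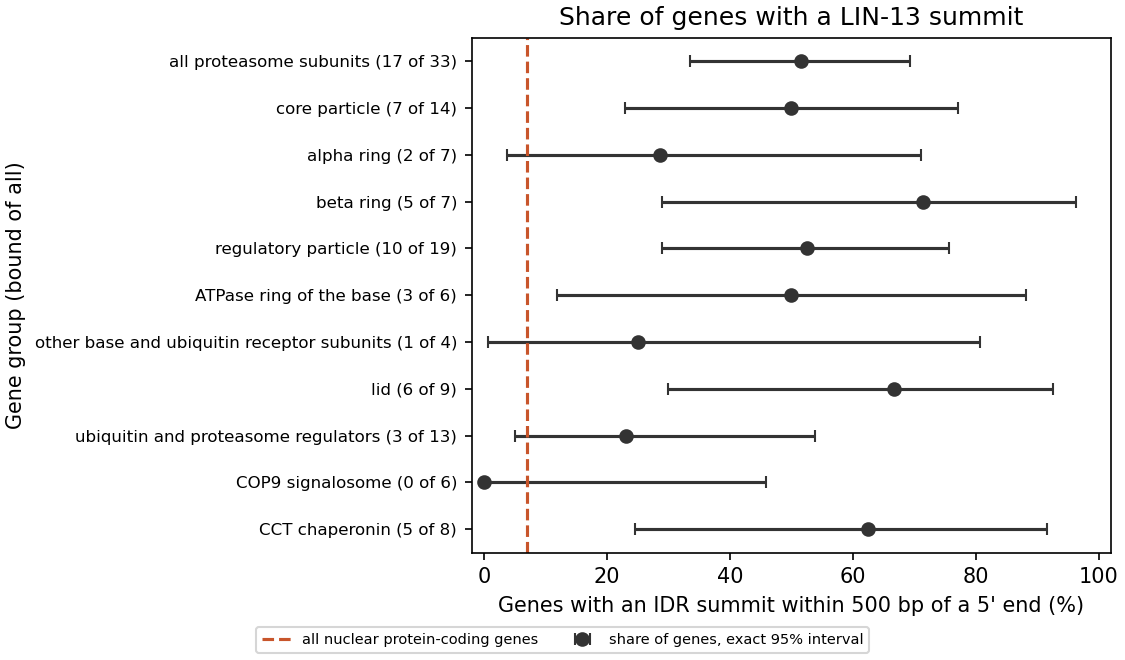
Share of bound genes (IDR summit at most 500 bp from an annotated 5' end), in percent, for the proteasome subunits, their classes and 3 related lists; points are shares, bars exact 95% intervals, and the dashed line is the 6.99% of all nuclear protein-coding genes. The core (50%) and regulatory (52.6%) particles lie side by side, and the intervals of the alpha ring, of the other base subunits, of the ubiquitin and proteasome regulators and of the COP9 signalosome reach the line.

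Most of the other members had weaker summits. In the relaxed list of 30000 pooled peaks, 31 of the 33 genes had a summit within reach (93.9%, exact 95% interval 79.8 to 99.3%), against 39.0% of all protein-coding genes. Only pbs-6 and rpt-3 had none. Among the genes with a relaxed summit, 17 of 31 proteasome genes were bound, against 17.9% of all such genes. The IDR list ended at a signal value of 40.1. Just above that limit lay rpn-6.1 (rank 2095, signal value 40.6) and rpn-10 (rank 1994, 41.8), and just below it rpn-2 (rank 2256, 39.0) and pas-2 (rank 2611, 36.2). Signal values are the authors' own, without a stated scaling, and rank 1 is the highest of a list.

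The peaks of the bound members were of ordinary height for promoter peaks. Their signal values had a median of 57.0 and ran from 40.6 to 131.4, against a median of 58.8 over the 1131 IDR summits within 500 bp of any protein-coding 5' end. Of the 17, 8 exceeded that median. The bound core genes had a median of 55.6 and the bound regulatory genes a median of 62.2, but over all members with a pooled summit the order was the other way, with a median of 44.8 for 13 core genes and 41.2 for 18 regulatory genes. The 3 highest values all belonged to lid genes.

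**Figure D2:**
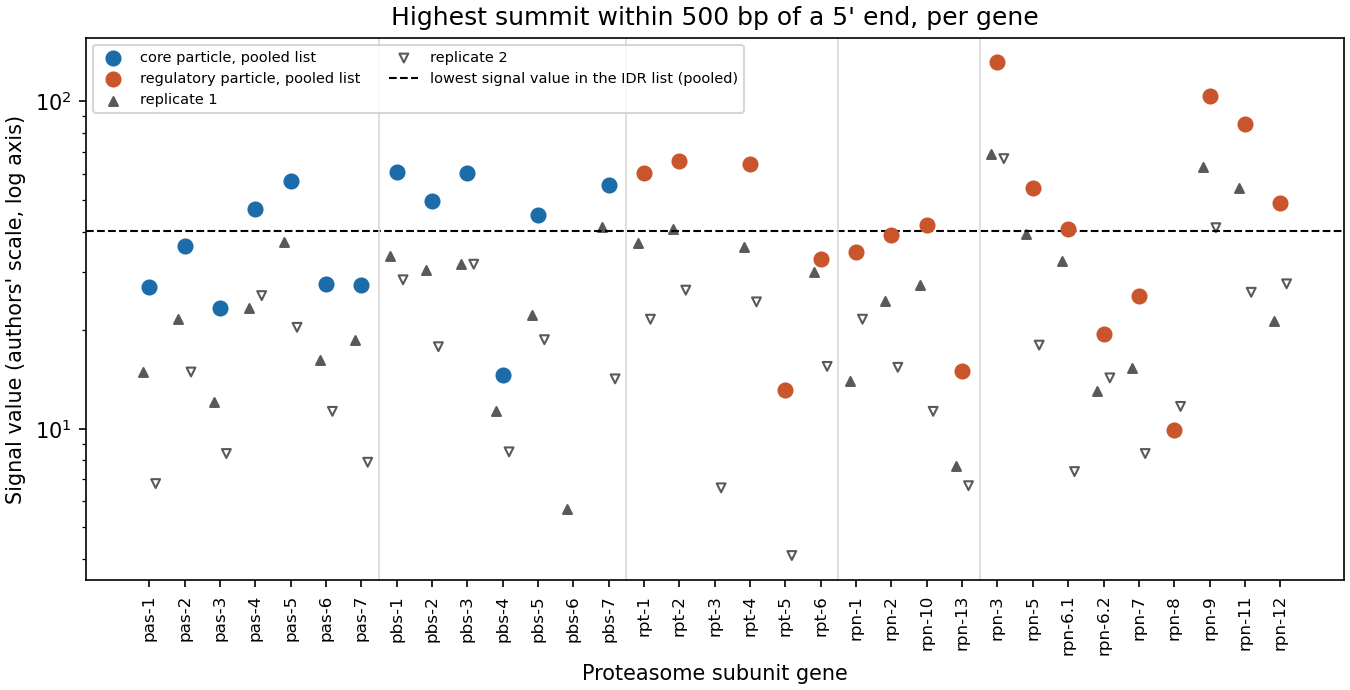
Signal value, on a log axis, of the highest summit within 500 bp of a 5' end of each proteasome gene; circles are the pooled list, triangles the replicates, and the dashed line is the lowest pooled value of the IDR list (40.1). Of the 33 genes, 17 lie above the line, with rpn-3 at 131.4 the highest, and pbs-6 and rpt-3 have no pooled value.

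The lid docks beside the base and cuts ubiquitin chains from substrates. Of its 9 genes 6 were bound (66.7%, exact 95% interval 29.9 to 92.5%), against 6.99% of all protein-coding genes. That interval overlaps those of the other classes, and no difference between classes was tested. The highest peak of all members was that of rpn-3, a scaffold subunit of the lid, with a signal value of 131.4 (rank 142) in the pooled list, 69.2 (rank 171) in replicate 1 and 66.8 (rank 110) in replicate 2. The rpn-9 peak, at another structural lid subunit, had 103.5 (rank 261) in the pooled list, 63.0 (rank 217) in replicate 1 and 41.1 (rank 415) in replicate 2. The rpn-3 peak was at chrIII:8447083-8447236 and the rpn-9 peak at chrII:11239121-11239227 (ce11), and both ranked within the highest 500 peaks of either replicate. The gene rpn-11, which encodes the deubiquitinase of the lid, had 85.5 (rank 414) in the pooled list, 54.5 (rank 309) in replicate 1 and 26.1 (rank 1144) in replicate 2. Its summit lay 3 bp inside the gene, in the annotated 5' UTR, and was the one bound summit that was not upstream of the 5' end. The other 3 bound lid genes were rpn-5 (signal value 54.4), rpn-12 (48.9) and rpn-6.1 (40.6). The rpn-5 peak, 34 bp upstream of a structural lid gene, had 39.4 (rank 718) in replicate 1 and 18 (rank 2438) in replicate 2. The rpn-12 peak, 179 bp upstream of its lid gene, had 21.3 (rank 2779) in replicate 1 and 27.7 (rank 1003) in replicate 2. These 2 peaks thus stood higher in opposite replicates. The lid genes rpn-7 (25.5), rpn-6.2 (19.4) and rpn-8 (9.9) had relaxed summits below the IDR list.

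Of the base, the ATPase ring had 3 of 6 genes bound, with closely similar signal values. The rpt-2 peak had 65.8 in the pooled list, 40.7 in replicate 1 and 26.5 in replicate 2, and the rpt-4 peak had 64.2, 35.9 and 24.4 in the same order. The rpt-1 peak had 60.2 in the pooled list, 36.9 in replicate 1 and 21.6 in replicate 2. All 3 were among the 2141 strongest peaks of each replicate. The ATPase gene rpt-6 had its highest replicate 1 summit 252 bp upstream (signal value 30.2, rank 1373) and its highest replicate 2 summit 187 bp downstream (15.5, rank 3269), and its pooled summit reached 33.0 (rank 3068). The gene rpt-5 had 13.1 in the pooled list. The gene rpt-3 had no summit within reach in the pooled list or in replicate 1, and 6.6 in replicate 2. Among the 4 other base and ubiquitin receptor genes, rpn-10, which encodes a ubiquitin receptor, was bound with a signal value of 41.8 in the pooled list, 27.5 (rank 1667) in replicate 1 and 11.3 (rank 5853) in replicate 2, from a summit 13 bp upstream. The scaffold genes rpn-2 (39.0) and rpn-1 (34.6) and the ubiquitin receptor gene rpn-13 (15.0) were not.

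In the core particle, the beta ring had 5 of 7 genes bound (71.4%, exact 95% interval 29.0 to 96.3%) and the alpha ring 2 of 7 (28.6%, exact 95% interval 3.67 to 71.0%). The intervals overlap, and the difference was not tested. The genes of the proteolytic subunits, pbs-1 (caspase-like, signal value 61.0), pbs-2 (trypsin-like, 49.5) and pbs-5 (chymotrypsin-like, 44.8), were all bound. The pbs-1 peak had 33.8 (rank 1046) in replicate 1 and 28.5 (rank 937) in replicate 2. The pbs-2 peak had 30.6 (rank 1331) in replicate 1 and 17.8 (rank 2488) in replicate 2, and the pbs-5 peak 22.3 (rank 2546) and 18.7 (rank 2263). Of these, pbs-1 was within the 2141 highest peaks of both replicates and pbs-5 of neither. The non-catalytic beta genes pbs-3 (60.5) and pbs-7 (55.6) were also bound. The pbs-3 peak had 31.8 in either replicate (rank 1209 in replicate 1 and 733 in replicate 2), the most even pair among the bound members, and its summit was 140 bp upstream. The pbs-7 summit was 96 bp upstream, and its peak was the rank 621 peak of replicate 1 and the rank 3902 peak of replicate 2. Of the remaining beta genes, pbs-4 had 14.6 in the pooled list and pbs-6 had a summit in replicate 1 alone (5.7). In the alpha ring, which gates entry to the barrel, pas-5 (57.0) and pas-4 (47.0) were bound. The pas-5 peak, 366 bp upstream, had 37.1 (rank 833) in replicate 1 and 20.4 (rank 1886) in replicate 2. The pas-4 peak, 136 bp upstream, had 23.3 (rank 2319) in replicate 1 and 25.5 (rank 1199) in replicate 2. The other 5 alpha genes all had relaxed summits, with signal values of 36.2 for pas-2, 27.7 for pas-6, 27.4 for pas-7, 27.1 for pas-1 and 23.3 for pas-3.

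The replicates shared the strongest of these peaks and differed over the weaker ones. With the 2141 highest peaks of each replicate, as many as the IDR list holds, 9 genes had a summit in both (27.3%, exact 95% interval 13.3 to 45.5%), against 4.61% of all protein-coding genes. They were rpn-3, rpn-9, rpn-11, rpt-1, rpt-2, rpt-4, pas-5, pbs-1 and pbs-3, all of them bound in the IDR list. That list and its signal values came from the same replicates, so this overlap was partly built in. Replicate 1 alone gave 16 genes, against 6.92% of all genes, and replicate 2 alone 12, against 6.66%. In replicate 1 but not replicate 2 these were pbs-2, pbs-7, rpn-2, rpn-5, rpn-6.1, rpn-10 and rpt-6, and in replicate 2 but not replicate 1 pas-4, rpn-1 and rpn-12. Over the 29 members with a relaxed summit in both replicates, Pearson's r between the log10 signal values was 0.73, and Spearman's rho was 0.64. Each value was that of the gene's highest summit in the replicate, which was not always the same site, as at rpn-2, rpn-6.2, rpt-6 and pbs-4. These are descriptions across genes, which share the same libraries.

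Replicate 1 carried most of the signal at some bound genes. The ratio of the replicate 1 to the replicate 2 signal value had a median of 1.54 at the 17 member peaks, against a median of 1.3 (quartiles 0.98 and 1.71) over 1129 promoter peaks with a relaxed peak in both. The rpn-6.1 peak had 32.5 (rank 1151) in replicate 1 and 7.4 (rank 12421) in replicate 2, a ratio of 4.37 that exceeded 99.5% of those peaks. The pbs-7 peak had 41.4 and 14.2 (ratio 2.91), and the rpn-10 peak 27.5 and 11.3 (ratio 2.43). The rpn-12 peak ran the other way, with 21.3 in replicate 1 and 27.7 in replicate 2 (ratio 0.77). Depth per replicate is unknown, and its part in these ratios was not tested.

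**Figure D3:**
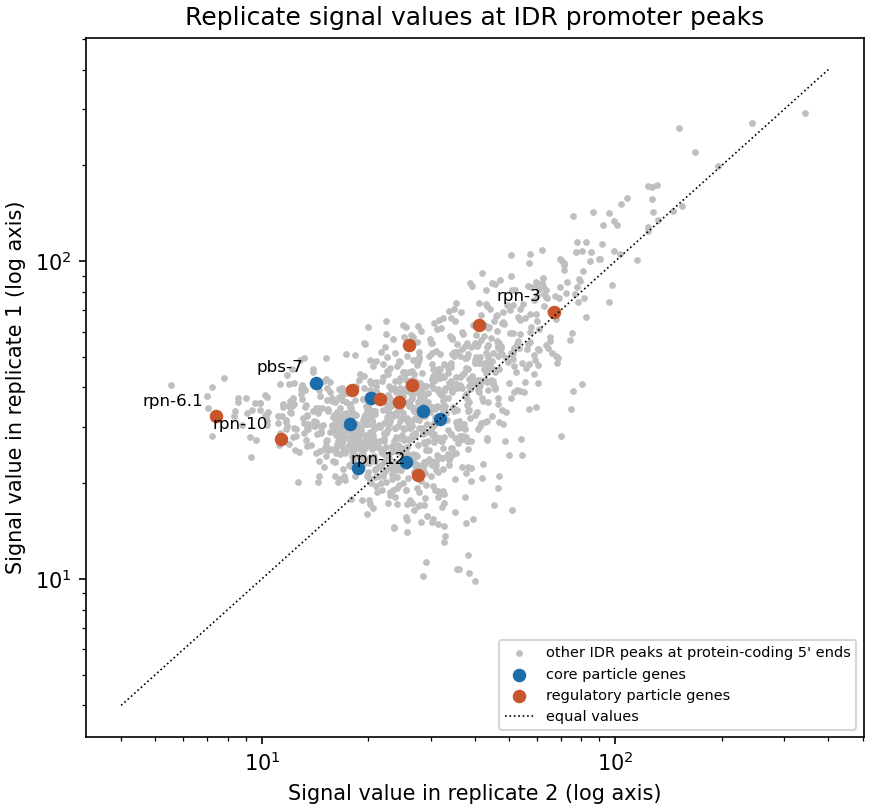
Signal value in replicate 1 against replicate 2, both on log axes, for IDR peaks within 500 bp of a protein-coding 5' end; coloured points are the 17 proteasome peaks and grey points the others, and the dotted line marks equal values. The rpn-3 peak lies near the line (69.2 and 66.8), and rpn-6.1 lies far to the replicate 1 side (32.5 and 7.4).

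The bound summits lay in the usual place upstream of the genes. Each bound gene had exactly 1 IDR summit within reach, and 16 of the 17 were upstream of the nearest 5' end, at a median position of -157 bp, against a median of -169 bp and 88.2% upstream over all 1131 promoter summits. Annotated 5' ends of worm genes are often trans-splice sites, so the start of transcription may lie further upstream. Of the summits, 11 were intergenic, 2 were in introns of the longer transcripts of rpt-4 and rpn-6.1, 2 were in exons of the non-coding RNA genes F29G9.10 (at rpt-2) and C36B1.16 (at pas-4), 1 was in the 5' UTR of rpn-11 and 1, that of pbs-3, in the 3' UTR of the neighbouring gene ulp-2. The pbs-3 gene starts 22 bp beyond the end of ulp-2 on the same strand. Among the weaker pooled summits, those of rpn-6.2 and rpn-13 lay 303 and 310 bp inside the genes.

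**Figure D4:**
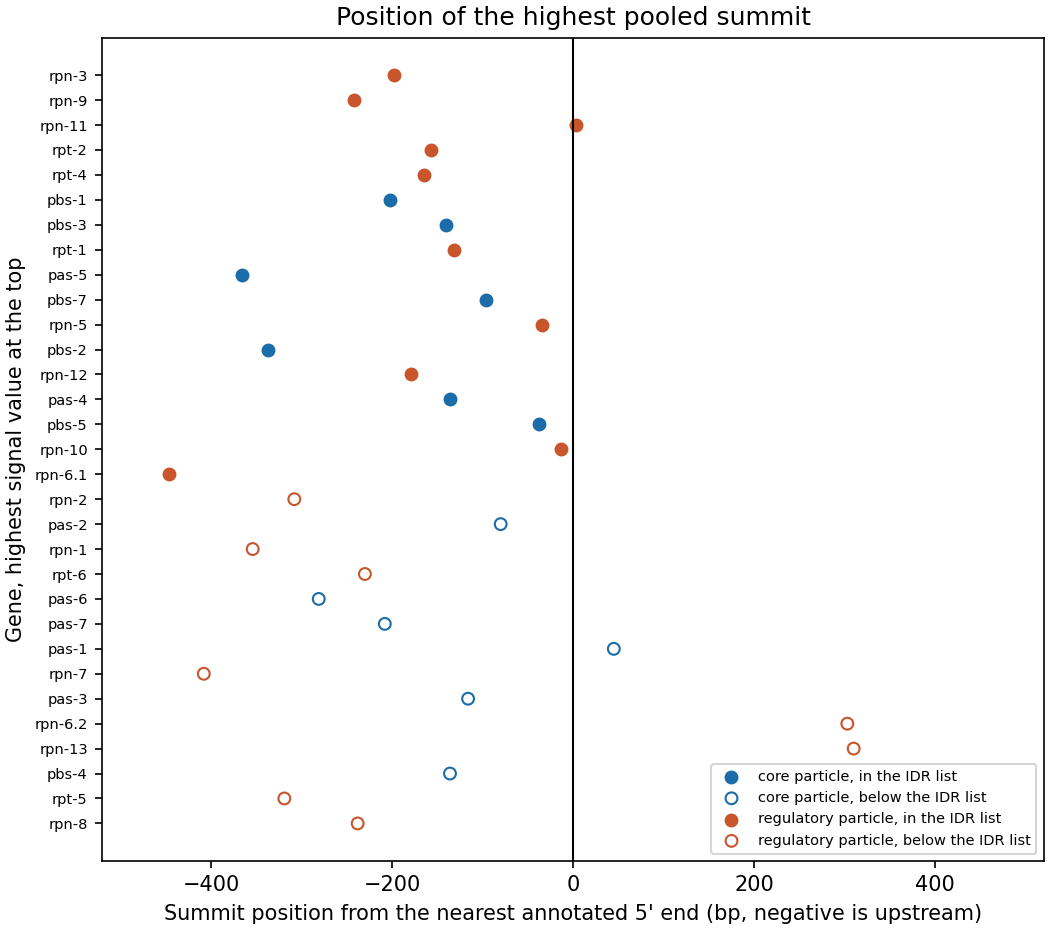
Position of the highest pooled summit of 31 proteasome genes relative to the nearest annotated 5' end, in bp, with genes ordered by signal value from the top; filled points are in the IDR list and open points below it. Most summits lie upstream, and rpn-6.2 and rpn-13 are the 2 that lie over 300 bp downstream.

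Many of the peaks lay between a proteasome gene and an oppositely oriented neighbour. For 10 of the 17 bound genes (58.8%) the summit was also within 500 bp of the 5' end of another protein-coding gene. Of all 1397 bound genes, 41.9% were bound only through summits near several genes, on either strand. The 10 partners were all on the opposite strand, as is usual for such summits. Of the 298 promoter summits near several genes, 287 (96.3%) had genes on both strands. The partners included hsp-110 (a chaperone gene, at rpn-3), scc-1 (a cohesin gene, at rpn-5), eif-6 (a ribosome biogenesis gene, at pbs-2), rpb-3 (a subunit of RNA polymerase II, at pas-4), nfyc-1 (a subunit of the transcription factor NF-Y, at rpt-4) and aps-1 (a clathrin adaptor gene, at rpt-2). The rpn-12 summit, 179 bp from that gene, was also 216 bp from rad-23, which encodes a shuttle factor that brings ubiquitinated proteins to the proteasome. The others were T06D8.9 at rpn-9, K08D12.3 at pbs-1 and F39H11.1 at pbs-7. Such a peak cannot be assigned to either gene of the pair.

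The 7 genes bound through a summit of their own were pas-5, pbs-3, pbs-5, rpt-1, rpn-6.1, rpn-10 and rpn-11 (21.2% of the 33), against 4.07% of all protein-coding genes. Divergent gene pairs were also common among the members without a peak. An opposite-strand 5' end lay within 1000 bp upstream of the outermost 5' end of 21 of the 33 genes (63.6%), against 18.3% of all genes. Of these 21, 10 were bound (47.6%), against 18.1% of all such genes. Of the 12 without such a neighbour 7 were bound (58.3%), against 4.51% of all such genes. The arrangement was judged from the outermost 5' end, whereas rpt-4 and rpn-6.1 were bound at inner ones. The 7 thus include rpt-4, whose peak is shared with nfyc-1 on the opposite strand. The 10 include rpn-6.1, bound through a summit of its own. The exact 95% intervals were 25.7 to 70.2% for the 21 and 27.7 to 84.8% for the 12. The part of gene arrangement in the share of bound members was not tested.

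The count of bound members followed the list and the distance used. In the higher part of the IDR list, of 1070 peaks, 9 were bound, against 3.95% of all genes, and in the 4282 highest pooled peaks 22, against 12.2%. Within 200 bp 12 were bound, against 3.43%, and within 1000 bp still 17, against 9.13%. With the outermost 5' end of each gene 15 were bound, against 6.59%, since rpt-4 and rpn-6.1 were reached only through inner 5' ends. With any part of the peak counted 17 were bound, against 7.8%, and with each summit given to its nearest 5' end only 14, against 5.52%.

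The sequences at the bound summits were searched for 4 motifs on both strands. The SKN-1-like motif, spelled TGTCAT or TATCAT, was within 100 bp of 6 of the 17 member summits (rpn-11, rpt-2, rpt-4, pbs-1, rpn-12 and rpn-6.1), against 13.1% of the 1131 promoter summits. All 6 matches were part of the longer spelling ATTGTCAT, which was picked out after the sequences were seen. ATTGTCAT was within 100 bp of 17 promoter summits in all (1.5%): the 6 at proteasome genes (35.3% of the 17) and 11 of the 1114 others (0.987%). Because the spelling came from these sequences, the contrast carries no test. Windows of 151 bp centred on the summits of the 5 genes that hold it outside annotated UTRs are shown along each gene's strand from the reference genome (RefSeq, WBcel235), with ATTGTCAT or its reverse complement in capitals.
rpt-2, chrV:6017751-6017901, minus strand: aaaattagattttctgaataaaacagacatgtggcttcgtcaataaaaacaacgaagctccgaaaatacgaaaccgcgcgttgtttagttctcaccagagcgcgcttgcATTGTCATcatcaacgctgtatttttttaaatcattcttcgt
rpn-12, chrII:11652870-11653020, plus strand: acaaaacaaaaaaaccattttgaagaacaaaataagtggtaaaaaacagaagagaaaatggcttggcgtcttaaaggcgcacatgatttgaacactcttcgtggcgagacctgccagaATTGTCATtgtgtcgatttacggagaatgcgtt
rpn-6.1, chrIII:6961311-6961461, minus strand: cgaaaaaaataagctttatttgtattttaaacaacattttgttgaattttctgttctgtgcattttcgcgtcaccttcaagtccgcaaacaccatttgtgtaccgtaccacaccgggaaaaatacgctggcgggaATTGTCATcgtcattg
rpt-4, chrII:43752-43902, minus strand: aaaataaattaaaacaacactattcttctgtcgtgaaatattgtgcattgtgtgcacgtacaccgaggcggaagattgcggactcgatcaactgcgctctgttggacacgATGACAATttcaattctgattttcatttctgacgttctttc
pbs-1, chrIV:1709872-1710022, minus strand: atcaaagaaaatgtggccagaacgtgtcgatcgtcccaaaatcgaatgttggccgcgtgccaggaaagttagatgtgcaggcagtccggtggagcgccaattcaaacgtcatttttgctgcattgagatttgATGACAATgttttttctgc

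All 6 matches lay on the proteasome gene's side of the IDR summit, although the rpt-2 and rpt-4 summits were nearer to the 5' ends of aps-1 and nfyc-1 on the other side. At rpn-12 the highest summit was 111 bp upstream of the 5' end in replicate 1 and 216 bp upstream in replicate 2. The match there thus lay on the far side of the replicate 1 summit. Of all 17 promoter summits with ATTGTCAT, which include these 6, 9 had a match on the gene side. For the shorter spellings it was 80 of 148 promoter summits. At a summit near several genes the side depends on which gene is taken. These counts may therefore not be like that at the proteasome genes, and the contrast was not tested. The 6 matches began 21 bp downstream of the summit at rpn-11, 34 bp at rpt-2, 35 bp at rpt-4, 43 bp at rpn-12, 57 bp at pbs-1 and 60 bp at rpn-6.1. The word read along the gene's strand at rpn-11, rpt-2, rpn-12 and rpn-6.1 and against it at rpt-4 and pbs-1. Relative to the 5' ends it began 123 bp upstream at rpt-2, 136 bp upstream at rpn-12, 130 bp upstream at rpt-4, 145 bp upstream at pbs-1 and 386 bp upstream at rpn-6.1. At rpn-11 it began 24 bp downstream. A match is a description of the letters and does not show that a factor binds there.

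The word was not a general feature of the members. In the 300 bp from 250 bp upstream to 50 bp downstream of the outermost 5' end, ATTGTCAT was found for 5 of the 33 genes (rpn-11, rpn-12, rpt-2, pbs-1 and pas-2, of which pas-2 was not bound), against 1.93% of all protein-coding genes. The shorter SKN-1-like spellings were found for 15 of the 33, 8 bound and 7 not, against 32.3% of all genes. The strongest 2 peaks, at rpn-3 and rpn-9, and the rpt-1 peak held none of the 4 motifs in the windows below. The genes pbs-6 and rpt-3, with no pooled summit within reach, are shown for comparison by windows of the same length. These were centred 157 bp upstream of their 5' ends, the median position of the bound summits, and they too held none of the motifs. The 300 bp promoters of rpt-1 and pbs-6 did hold a shorter SKN-1-like spelling, outside the windows shown.
rpn-3, chrIII:8447080-8447230, plus strand: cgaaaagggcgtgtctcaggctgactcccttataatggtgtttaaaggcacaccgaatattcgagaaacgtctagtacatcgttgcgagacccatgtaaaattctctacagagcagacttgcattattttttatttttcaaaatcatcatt
rpn-9, chrII:11239086-11239236, minus strand: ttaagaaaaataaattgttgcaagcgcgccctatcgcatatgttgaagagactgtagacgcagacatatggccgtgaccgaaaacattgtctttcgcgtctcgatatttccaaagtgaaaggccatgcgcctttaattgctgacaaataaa
rpt-1, chrV:11982454-11982604, minus strand: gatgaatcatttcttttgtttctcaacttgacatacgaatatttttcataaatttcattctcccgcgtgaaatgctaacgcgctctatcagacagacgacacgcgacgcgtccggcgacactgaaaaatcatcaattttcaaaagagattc
pbs-6, chrIII:8244174-8244324, minus strand: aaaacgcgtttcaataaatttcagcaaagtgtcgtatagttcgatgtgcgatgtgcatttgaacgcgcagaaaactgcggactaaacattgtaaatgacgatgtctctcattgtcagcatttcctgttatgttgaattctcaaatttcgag
rpt-3, chrIII:6489561-6489711, plus strand: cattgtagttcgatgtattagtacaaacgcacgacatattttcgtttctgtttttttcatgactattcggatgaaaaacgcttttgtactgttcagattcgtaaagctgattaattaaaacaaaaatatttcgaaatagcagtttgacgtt

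GAGA repeats were not found at these promoters. The motif GAGAGAG was within 100 bp of 0 of the 17 member summits, against 15.2% of the 1131 promoter summits, and in the 300 bp promoters of 0 of the 33 genes, against 6.78% of all genes. The E-box CACGTG and the E2F-like motif TTCGCGC were each within 100 bp of 1 member summit, both at pas-5, against 5.13% and 5.92% of promoter summits. The windows were low in G and C: over the 201 bp centred on the summit, GC content had a median of 34.8% (range 27.4 to 42.8%) at the 17 member summits, against a median of 42.3% over all promoter summits, and 16 of the 17 were below that median. The part of base composition in the motif counts was not tested.

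Related lists of genes were counted in the same way. Of 13 regulators and cofactors of the ubiquitin and proteasome pathway, 3 were bound (23.1%, exact 95% interval 5.04 to 53.8%), against 6.99% of all protein-coding genes. They were aip-1, a stress-induced proteasome adaptor gene (signal value 75.5), the polyubiquitin gene ubq-1 (54.3), and rad-23 through the peak it shares with rpn-12 (48.9). Those without an IDR summit were dss-1, usp-14, ubh-4, ubql-1, psme-3, psmd-9, skn-1, ddi-1, png-1 and uba-1, which include the SKN-1 gene itself and the ubiquitin-activating enzyme gene uba-1. Of the 6 COP9 signalosome genes csn-1 to csn-6, whose products are related to the proteasome lid, 0 were bound (exact 95% interval 0.0 to 45.9%), an interval that holds the 6.99% of all genes and overlaps that of the proteasome genes (33.5 to 69.2%), and 4 had relaxed summits. The CCT chaperonin, another complex that is made of many different subunits, had 5 of 8 genes bound (62.5%, exact 95% interval 24.5 to 91.5%), with signal values from 74.8 at cct-5 to 154.2 at cct-8. None of the 5 had a summit near a single protein-coding gene. These differences between lists were not tested.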

How the data were processed

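LIN-13 was immunoprecipitated from whole L4 larvae in 2 biological replicates, and 1 group was formed from the replicate numbers in the labels. The authors deposited narrowPeak lists on ce11: a relaxed list of 30000 peaks per replicate and 1 such list made from both together, and an IDR list of 2141 peaks, of which 2121 were nuclear. Per the deposited listings, control-normalized tracks used a control library; which caller and IDR threshold were used is not given in the sources used here. Signal values (column 7) are the authors' with unstated scaling, so replicates were compared mainly by rank. The deposited −log10 q-value column was not used. Depth is unknown. Lists on ce10 were not used here.

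Summits were the peak start plus the summit offset, printed counting from 1, and were set against the 5' ends of protein-coding transcripts (Ensembl release 115, WBcel235, the ce11 assembly). Intervals are Clopper-Pearson. Peaks and genes share sources and are not independent. Every member was named, with the related lists' bound genes. The members, lists and motifs were chosen with earlier results of these data known; no p-value was computed. The assignment of summits to genes was tested on simulated data. The software was SciPy 1.17.1, matplotlib 3.10.9, pandas 2.3.3 and NumPy 2.4.6 under Python 3.11.15.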

Additional observations from a re-analysis of the deposited data

How the results depend on the processing

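No paired analysis was possible because only 1 group exists. The count of 17 bound proteasome genes stayed within 1.5 times under 8 of 10 alternatives (12 to 22 genes). It was 9 in the higher part of the IDR list (3 core and 6 regulatory) and 7 with summits near 1 protein-coding gene only (3 core and 4 regulatory). Leaving out replicate 1 or 2 gave 12 and 16 genes, of which 4 and 5 were core, against 7 core genes bound in the IDR list, and 8 and 11 regulatory, against 10. The core count was also 4 within 200 bp, where 8 regulatory genes were bound. The 31 genes with a pooled relaxed summit were 17 within 200 bp, against 22.7% of all genes. The 9 genes with a summit in both replicates were 2 with the 1000 highest peaks of each replicate (6.06%), against 2.47% of all genes. With the 4282 highest they were 18 (54.5%), against 7.88% of all genes. The share of all genes thus fell as well in the stricter lists, and for the other settings it is given above. Unknown depth limits what the weaker summits and the missing ones (pbs-6 and rpt-3) can show.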

Other observations

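None of the 33 proteasome genes lies on the X chromosome, which holds 13.7% of all nuclear protein-coding genes. On chromosome II 6 of 7 members were bound, against 6.47% of all genes there, and on chromosome III, where 11% of all genes were bound, 2 of 8 members were (rpn-3 and rpn-6.1). On chromosome I 6 of 10 members were bound, against 10.6% of all genes there. The 2 members without a pooled summit, pbs-6 and rpt-3, are both on chromosome III.

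A same-strand protein-coding gene ended within 500 bp upstream of 8 of the 33 members, against 18.1% of all genes, an arrangement that in worms includes operons. Of these 8, 4 were bound (pbs-3, pbs-5, rpn-10 and rpn-11), and of the other 25 members 13 were, against 6.99% of all protein-coding genes whatever their arrangement. The bound share of all genes with such a neighbour was not counted, so the 4 of 8 cannot be set against it. The paralogues rpn-6.1 and rpn-6.2 are on the same chromosome. In the pooled list rpn-6.1 had 40.6 upstream of an inner 5' end and rpn-6.2 had 19.4 inside the gene. Replicate 1 had the same order (32.5 for rpn-6.1 and 13 for rpn-6.2) and replicate 2 the opposite one (7.4 for rpn-6.1 and 14.3 for rpn-6.2). The rpn-6.2 values came from different sites. The summit was at chrIII:9000611 in replicate 1 and at chrIII:9001696 in replicate 2 and the pooled list. Soft-masked repeats held 6 of the 17 member summits (35.3%), against 16.2% of all promoter summits. The 6 were those of pas-5, pbs-5, rpn-6.1, rpn-10, rpn-11 and rpn-12, so 3 of them were also among the 6 with ATTGTCAT. No test was made of any of these contrasts.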
